A study of Mus musculus with 4 samples.

Results

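The ADAMTS proteases described here are 9 genes, Adamts1, Adamts2, Adamts4, Adamts5, Adamts9, Adamts10, Adamts12, Adamts15 and Adamts18, taken by their symbols from the 27999 gene rows that each of the 4 libraries holds. All 9 had unique molecular identifiers (UMIs, counts of captured RNA molecules) in every library. ADAMTS proteins are secreted zinc metalloproteases whose thrombospondin-type repeats help them bind extracellular matrix. They are made as inactive precursors that furin-type convertases cut, and TIMP3 is their best known tissue inhibitor. Some of them cut the large chondroitin sulphate proteoglycans versican and aggrecan, others trim the ends of procollagens or bind fibrillin microfibrils. In the hair follicle, the dermal papilla at the base and the dermal sheath around it are embedded in versican-rich and collagen-rich matrix, which is remodelled as the follicle grows and regresses.

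The cells came from back skin of C57BL/6J mice that carried α-SMACreERT2, a tamoxifen-inducible Cre driven by the smooth muscle actin promoter, and a Cre-dependent reporter. All of the mice, at every age, were given 4-hydroxytamoxifen on postnatal days 3 and 4. Cells were sorted through gates for the reporter or Cd26, each combined with Itga9 or Cd200, with 5000 cells from each gate. The 18-month library (18mo) was set against a 2-month library (2mo), both from RosaYFP mice and made with 10x 3' chemistry version 2 (v2). The 12-month library (12mo) was set against another 2-month library, both labelled RosaTDTomato and made with version 3 (v3), although the protocol text given for all 4 samples names RosaYFP. The labels give 2 mice per sample and state no sex. The study's design text counts 2 and 12 months as young and 18 months as aged, so the pooled comparison of the older libraries with the 2-month libraries is not the study's own grouping. Age differs from its partner in only 1 library per chemistry, and the 18-month and 12-month libraries also differ in chemistry and reporter.

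The files held 17130 barcodes, of which 13460 were kept, between 1677 and 5388 per library. Total UMIs ran between 17831300 and 77032628 per library, and the median kept cell had 6260 to 6588 UMIs in v2 and 11786.5 to 11934 in v3. The sample labels state 3776, 2604, 5415 and 6998 recovered cells for 18mo, 2mo v2, 12mo and 2mo v3, beside 2727, 1906, 5474 and 7023 barcodes in the files. Libraries of 1 pair shared 7 (v2) and 11 (v3) kept barcodes. Clusters were named from marker lists, and the ADAMTS genes were left out of the genes used for clustering. Dermal papilla-like cells numbered 463 (18mo), 522 (2mo v2), 388 (12mo) and 1086 (2mo v3), dermal sheath-like cells 414, 260, 1794 and 2284 in the same order, and dermal fibroblast-like cells 716, 196, 701 and 390. The sort also held keratinocyte-like cells (5.50% to 15.4% of a library) and macrophage and dendritic-like cells (6.32% to 19.0%). Pericyte and vascular smooth muscle-like cells numbered 255 and 221 in v2 but 12 and 28 in v3, and most dermal papilla-like and dermal sheath-like clusters were made of 1 chemistry.

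The promoters of 3 members are printed because their genes carry the patterns below. Adamts1 and Adamts18 had the lowest correlation over cell classes of the 36 pairs of members. Adamts2 was the only member that passed the age test in papilla-like cells, a call that was lost under some of the alternative settings given below. RefSeq's table (GRCm38.p6) held promoters of 5 of the 9 members, each 250 bases before and 50 after the start, given on the gene's strand. Capitals mark the GC box GGGCGG and the TATA box TATAAA, searched on both strands with no overlap between the 2 motifs.
Adamts1, chr16:85803064-85803363, minus strand: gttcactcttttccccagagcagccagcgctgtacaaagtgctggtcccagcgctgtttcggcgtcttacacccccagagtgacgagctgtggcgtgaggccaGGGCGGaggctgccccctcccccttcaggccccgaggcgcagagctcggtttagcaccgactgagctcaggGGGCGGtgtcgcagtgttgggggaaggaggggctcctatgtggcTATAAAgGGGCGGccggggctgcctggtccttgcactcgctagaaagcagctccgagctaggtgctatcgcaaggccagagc
Adamts2, chr11:50601835-50602134, plus strand: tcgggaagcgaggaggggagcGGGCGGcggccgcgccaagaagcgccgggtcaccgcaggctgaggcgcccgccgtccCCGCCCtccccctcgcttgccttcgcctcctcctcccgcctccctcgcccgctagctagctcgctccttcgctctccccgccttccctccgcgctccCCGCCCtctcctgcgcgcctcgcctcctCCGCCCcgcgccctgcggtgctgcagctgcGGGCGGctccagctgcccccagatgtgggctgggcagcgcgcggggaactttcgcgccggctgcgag
Adamts18, chr8:113848790-113849089, minus strand: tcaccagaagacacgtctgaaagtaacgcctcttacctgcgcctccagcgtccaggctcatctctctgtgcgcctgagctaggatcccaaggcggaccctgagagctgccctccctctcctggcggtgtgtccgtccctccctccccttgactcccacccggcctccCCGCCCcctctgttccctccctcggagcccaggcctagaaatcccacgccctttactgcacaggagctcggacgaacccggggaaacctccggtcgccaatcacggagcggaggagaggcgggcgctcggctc
The Adamts1 window held 3 GC boxes and a TATA box that begins 32 bases before the start (position -32), the Adamts2 window held 5 GC boxes, and the Adamts18 window held 1. GC content was 64.7%, 77.3% and 66.0%, beside a median of 52.7% over 32851 promoters. A GC box was present in 35.7% of those promoters and a TATA box in 13.6%. The AP-1 motif TGANTCA (7.81% of promoters) and the CRE motif TGACGTCA (1.79%) have no match in these 3 windows.

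All 9 identifiers matched the GENCODE M21 annotation of GRCm38. Adamts1 (chr16:85793827-85803113) and Adamts5 (chr16:85856173-85901828) are neighbours on the minus strand, 53.1 kb apart. Adamts2 lies at chr11:50602084-50807573, Adamts4 at chr1:171250421-171260637 and Adamts9 at chr6:92772699-92943492. Adamts10 lies at chr17:33524204-33553782, Adamts12 at chr15:11064790-11349231, Adamts15 at chr9:30899155-30922452 and Adamts18 at chr8:113697126-113848738. Adamts2 and Adamts9 each overlap 3 genes on the opposite strand, so their counts are less certain there, because the strand setting of the counting is not given in the sources used here.

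Levels are given as CPM, a gene's UMIs scaled to the same total of UMIs in every class and library. They are not corrected for gene length, so they are compared between classes and libraries and not between genes. Classes come from clustering the same cells, and the order of classes is given as a description over libraries with at least 50 cells of the class.

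Among the proteases known to cut versican and aggrecan, Adamts1 and Adamts4 had their highest levels in vessel-associated cells. Adamts1, which is induced quickly by inflammatory and hormonal signals in several tissues, had 537 CPM at 18mo and 323 CPM at 2mo v2 in pericyte-like cells and 478 CPM in the endothelium-like cells of 2mo v3, the only library with enough of them. Its next classes were arrector pili-like cells, at 286 CPM (2mo v2) and 127 CPM (2mo v3), and fibroblast-like cells, at 118 (18mo), 88.6 (2mo v2), 213 (12mo) and 223 CPM (2mo v3). The ranges of the arrector pili-like and fibroblast-like classes overlap, and both lie below the pericyte-like range. In keratinocyte-like cells Adamts1 had 48.3 CPM at 18mo, 30.3 at 2mo v2, 58.0 at 12mo and 70.1 at 2mo v3, whereas each of the other 8 members was at 9.93 CPM or lower in that class in every library.

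Adamts4, or aggrecanase 1, had 394 CPM in endothelium-like cells (2mo v3), and 460 (18mo) and 98.5 CPM (2mo v2) in pericyte-like cells. Arrector pili-like cells, with 69.5 (2mo v2) and 118 CPM (2mo v3), overlapped the pericyte-like range. In the 3 mesenchymal follicle and dermal classes its level was lower: 53.3 to 78.6 CPM in fibroblast-like, 48.6 to 60.4 CPM in sheath-like and 16.4 to 33.6 CPM in papilla-like cells over the 4 libraries. Adamts9, which cuts versican and is also known from heart and palate development in mice, had 341 CPM in endothelium-like cells of 2mo v3. Sheath-like cells followed with 53.7 (18mo), 30.7 (2mo v2), 68.6 (12mo) and 65.7 CPM (2mo v3), and papilla-like cells, with 29.1 to 48.0 CPM, overlapped that range.

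Adamts5, or aggrecanase 2, was spread over fibroblast-like cells (253 CPM at 18mo, 241 at 2mo v2, 302 at 12mo and 299 at 2mo v3), arrector pili-like cells (197 at 2mo v2 and 307 at 2mo v3) and sheath-like cells (187, 167, 256 and 233 CPM at 18mo, 2mo v2, 12mo and 2mo v3). The ranges of these classes overlap. All of them lie above the papilla-like range, 22.6 to 73.8 CPM. Adamts15, another versican-cutting and aggrecan-cutting protease, was low throughout and had its highest levels in fibroblast-like cells (27.1, 31.1, 16.0 and 30.9 CPM at 18mo, 2mo v2, 12mo and 2mo v3) and papilla-like cells (37.4, 39.8, 12.5 and 18.8 CPM), whose ranges overlap.

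Adamts2, the procollagen N-proteinase that removes the amino-terminal propeptides of fibrillar collagens, was highest in fibroblast-like cells. It had 395 CPM there at 18mo, 297 at 2mo v2, 521 at 12mo and 503 at 2mo v3. Every one of these lies above the sheath-like range of 127 to 155 CPM, which overlaps the papilla-like range of 64.6 to 137 CPM. Within the fibroblast-like class, cluster 20, led by Cyp2f2 and Pla2g2e, had 684 (2mo v2), 872 (12mo) and 1142 CPM (2mo v3), against 255, 294, 236 and 282 CPM at 18mo, 2mo v2, 12mo and 2mo v3 in cluster 0, which was led by Tek and Cxcl12.

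Adamts18, an ADAMTS protease with less well defined substrates that is needed for normal eye and branching organ development in mice, split the mesenchymal classes. It had 191 (18mo), 191 (2mo v2), 133 (12mo) and 193 CPM (2mo v3) in fibroblast-like cells and 196, 158, 162 and 197 CPM in sheath-like cells. Papilla-like cells had 1.06 (18mo), 4.19 (2mo v2), 4.80 (12mo) and 6.11 CPM (2mo v3), and no other class with at least 50 cells, apart from cycling cells, passed 53.9 CPM, the level in the myeloid class at 18mo. The split ran through the classes as well. Among fibroblast-like cells, cluster 0 had 484, 359, 391 and 431 CPM at 18mo, 2mo v2, 12mo and 2mo v3, while clusters 17 and 20 had no more than 12.5 CPM and cluster 8 had 13.7 to 49.7 CPM. Among sheath-like cells, cluster 2, the only one of them with at least 80 cells in all 4 libraries, had 35.2 (18mo), 13.7 (2mo v2), 40.9 (12mo) and 62.5 CPM (2mo v3), while clusters 1, 13, 14 and 18 had 111 to 282 CPM. Cluster 2, led by Megf11 and Smoc1, was also low in Adamts5, at 45.4, 33.3, 121 and 95.2 CPM in the same order of libraries.

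**Figure D1:**
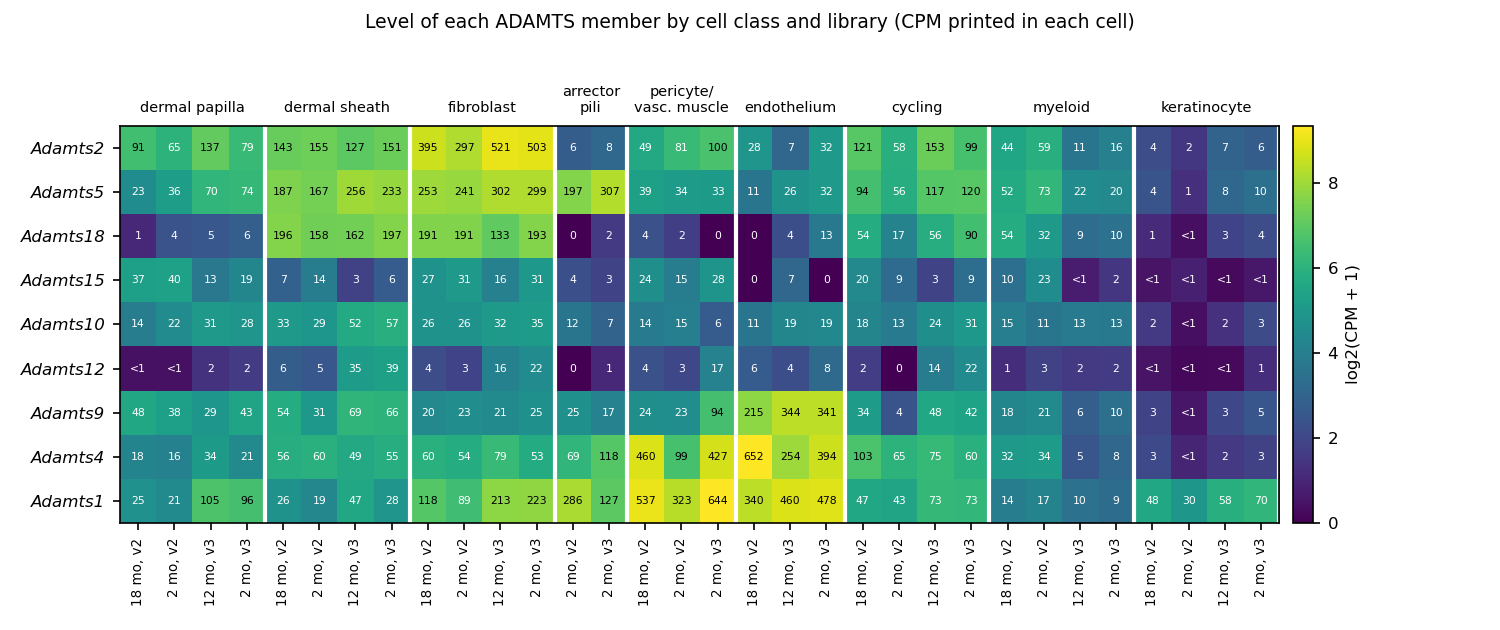
Level of each member (rows) in each cell class and library with at least 20 cells (columns), as log2(CPM + 1) in colour and CPM printed. Adamts2 is highest in fibroblast-like columns, Adamts18 is highest in fibroblast-like and sheath-like columns and at most 6.11 CPM in papilla-like ones, and Adamts1 and Adamts4 peak in pericyte-like and endothelium-like columns.

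**Figure D2:**
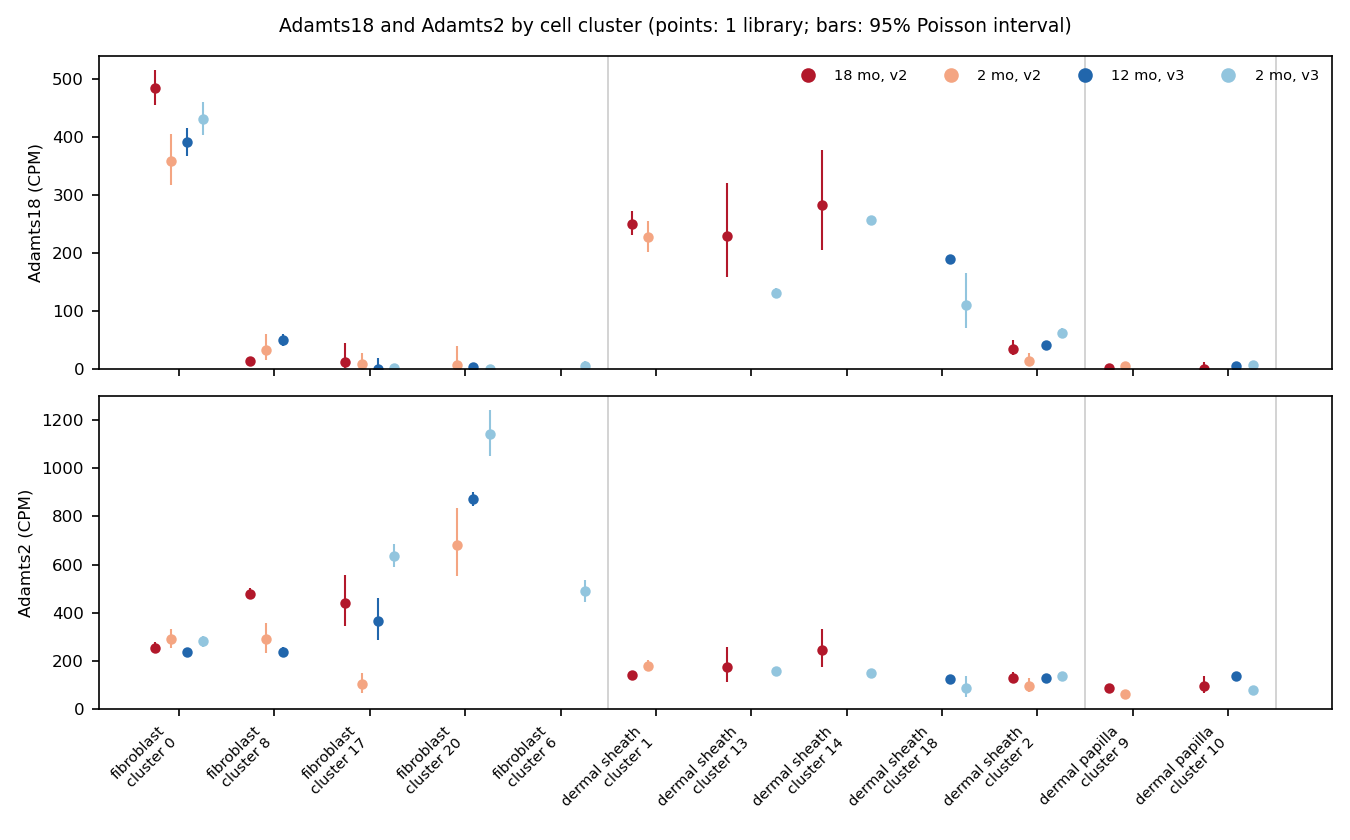
Adamts18 (top) and Adamts2 (bottom) in CPM for each cluster of the fibroblast-like, dermal sheath-like and dermal papilla-like classes, 1 point per library with at least 20 cells and 95% Poisson intervals as bars. Adamts18 reaches 359 to 484 CPM in fibroblast cluster 0 and is at most 12.5 CPM in clusters 17 and 20, where Adamts2 is higher than in cluster 0 except in the 2-month v2 library of cluster 17.

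Adamts10, which binds fibrillin microfibrils, had its highest level in sheath-like cells, at 32.7 (18mo), 29.2 (2mo v2), 51.7 (12mo) and 56.6 CPM (2mo v3). The fibroblast-like range of 26.2 to 35.2 CPM overlaps it. Adamts12, known for cutting cartilage oligomeric matrix protein, differed between the chemistries: sheath-like cells had 5.69 (18mo) and 4.77 CPM (2mo v2), against 34.7 (12mo) and 39.1 CPM (2mo v3), and fibroblast-like cells 3.67 and 2.71 CPM, against 16.5 and 22.0 CPM. Adamts12 was higher in both v3 libraries than in both v2 libraries in each of these classes, and chemistry, reporter and animals cannot be told apart as the source. Sheath-like cells held 82.4% (12mo) and 86.7% (2mo v3) of all Adamts12 UMIs in v3, and 75.4% and 84.3% of all Adamts18 UMIs. The class made up 45.3% (12mo) and 42.4% (2mo v3) of the kept cells of these libraries. In v2 it held 37.7% (18mo) and 40.9% (2mo v2) of Adamts12 UMIs, and 35.8% and 46.5% of Adamts18 UMIs. Fibroblast-like cells there held 54.2% (18mo) and 43.9% (2mo v2) of Adamts18 UMIs. These shares thus depend on the make-up of each library as well as on the level per cell.

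Shares of cells with a UMI were compared after each cell was thinned to 2000 UMIs, which left out 0, 0, 55 and 114 cells of 18mo, 2mo v2, 12mo and 2mo v3. Adamts18 was then found in 29.5% (18mo), 18.8% (2mo v2), 23.6% (12mo) and 28.2% (2mo v3) of sheath-like cells, against unthinned shares of 56.8%, 39.2%, 65.9% and 72.9%. In papilla-like cells the thinned shares were 0%, 0.383%, 0.777% and 1.12%, and in keratinocyte-like cells, which should lack the gene, 0%, 0%, 0% and 0.694%. The 0 of 463 papilla-like cells at 18mo allows a share of cells with a UMI of up to 0.648%, and the keratinocyte zeros up to 2.04% (18mo), 1.16% (2mo v2) and 1.40% (12mo). By CPM, Adamts18 in papilla-like cells (1.06, 4.19, 4.80 and 6.11 at 18mo, 2mo v2, 12mo and 2mo v3) was lower than in keratinocyte-like cells at 18mo (1.21) and higher than the 0.315, 2.66 and 3.62 CPM of keratinocyte-like cells in the other 3 libraries. Unthinned, Adamts18 had a UMI in 0.432% to 5.43% of papilla-like cells and 0.772% to 5.92% of keratinocyte-like cells, with median depths of 5018.5 to 8280 and 12991 to 25571 UMIs per cell. Adamts2 had thinned shares of 51.0%, 41.3%, 50.0% and 48.7% in fibroblast-like cells, against 1.36%, 0.772%, 0% and 1.04% in keratinocyte-like cells.

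The genes whose levels ran most like those of each member were sought among 8669 genes over 27 profiles, 1 for each class and library with at least 50 cells. These correlations share libraries and depth, and are given as a description. Adamts2 ran with Fbn1 (Pearson r = 0.97), Fstl1 (0.95) and Mmp14 (0.94), and Adamts18 with Col1a1 (0.96), Postn (0.95) and Creb3l1 (0.94). Fbn1 is also one of the fibroblast markers used to name clusters. For Adamts5 the nearest genes were Zdhhc8 (0.95), Twist2 (0.94) and Adam33 (0.93). Adamts4 was nearest to Msrb3 (0.92), Ptrf (0.91) and Rhoj (0.91), and Adamts1 to Usp2, Galnt18 and Osmr (all 0.86). Adamts9 ran with Synpo, Col4a2 (both 0.90) and Slc9a3r2 (0.89). Of the remaining 3 members, Adamts10 ran with Fndc3b, Arfgap3 and Plpp5 (all 0.95), Adamts12 with Cyth3 and Thbs4 (both 0.90), and Adamts15 with Gpx3, Nfatc4 (both 0.89) and Abhd11os (0.88). Between members, Adamts2 and Adamts10 had an r of 0.85, and Adamts1 and Adamts18 one of -0.12.

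Over all kept cells, each of the 9 members was higher at 18 months than at 2 months in v2, and the 12-month library showed no such common direction. Adamts18 had 100.4 CPM at 18mo and 40.0 CPM at 2mo v2, a ratio of 2.51 (95% interval 2.29 to 2.75). Adamts4 had 73.9 and 30.0 CPM at 18mo and 2mo v2 (2.46, 2.22 to 2.74), and Adamts2 had 165 and 70.5 CPM (2.34, 2.19 to 2.51). The other ratios at 18 over 2 months were 2.02 for Adamts12, 1.92 for Adamts5, 1.75 for Adamts9, 1.56 for Adamts10, 1.41 for Adamts1 and 1.19 for Adamts15, with all intervals above 1. These intervals are exact conditional Poisson intervals that cover counting error only, and with 1 library per age and chemistry there is no replicate check. Of 14282 genes with at least 20 UMIs in the pair, 33.7% had an interval above 1 and 19.1% one below 1.

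In v3, Adamts2 had 169.7 CPM at 12mo and 122 CPM at 2mo (ratio 1.39), Adamts5 had 191 and 169.9 CPM (1.12) and Adamts1 had 80.6 and 72.7 CPM (1.11), with intervals above 1. Adamts15 had 5.19 CPM at 12mo and 8.40 CPM at 2mo (0.618), Adamts4 had 45.6 and 51.7 CPM (0.882) and Adamts9 had 44.2 and 48.8 CPM (0.907), with intervals below 1. The intervals of Adamts10 (0.991), Adamts12 (0.990) and Adamts18 (0.979) held 1. Of 16042 genes, 19.9% had an interval above 1 and 40.8% one below 1. In edgeR's quasi-likelihood test, which set 18mo and 12mo against the 2-month pair and held chemistry fixed, 0 of 15458 genes passed (0% at an adjusted p of 0.05; 1698 genes had an unadjusted p under 0.05, and DESeq2 called 386, or 1.83% of those it tested). Of the members, 8 of 9 had a fitted log2 fold above 0, as did 49.8% of all genes, with a median of 0.40, beside -0.0016 over all genes, and Adamts2 had the largest (0.85 ± 0.20 SE, adjusted p = 0.354).

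Levels over all kept cells mix the number of cells of a class with the RNA of each cell, and the 2 cannot be told apart there. Fibroblast-like cells made up 29.5% of the 18-month library and 11.7% of its 2-month partner, and 17.7% of the 12-month library and 7.24% of its partner. With each class weighted by its share of UMIs in the 2-month library, the log2 ratio at 18 over 2 months was 0.21 for Adamts2 (1.23 before weighting), 0.05 for Adamts5 (0.94), 0.01 for Adamts10 (0.64) and 0.23 for Adamts18 (1.33). Adamts4 had 1.09 (1.30 before weighting) and Adamts1 had 0.61 (0.49 before). Adamts9 had 0.45, Adamts12 0.32 and Adamts15 -0.17. With the shares of the 18-month library as weights, Adamts4 had 0.68 and Adamts1 had 0.52. How much of the Adamts4 difference stayed thus depended on the weights. Adamts2, Adamts5, Adamts10 and Adamts18 had 0.26, 0.04, 0.02 and 0.17 with the 18-month weights. At 12 over 2 months Adamts2 had a weighted log2 ratio of -0.0012 (0.48 before weighting), and the weighted values of the other members ran between -0.83 for Adamts15 and 0.19 for Adamts1.

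**Figure D3:**
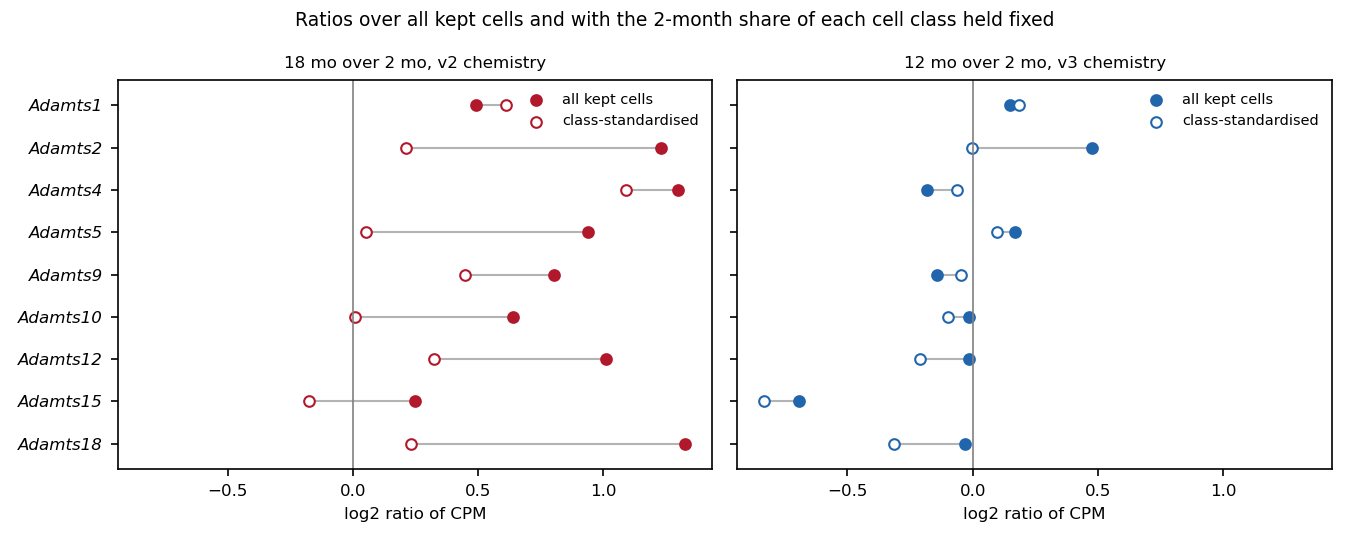
Log2 ratio of CPM, older over 2 months, for each member over all kept cells (filled) and with the share of each class held at that of the 2-month library (open), at 18 months in v2 (left) and 12 months in v3 (right). Open points use only the 7 classes with at least 20 cells in both libraries of the pair. For Adamts2, Adamts5, Adamts10 and Adamts18 at 18 months the open point lies near 0 (0.01 to 0.23), far from the filled one. The open point of Adamts4 lies at 1.09, while with the 18-month shares, which are not drawn, its value was 0.68.

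In dermal papilla-like cells, Adamts2 was the only member that passed the age test. It had 90.7 CPM at 18mo and 64.6 CPM at 2mo v2, and 137 CPM at 12mo and 79.1 CPM at 2mo v3. Both older libraries lay above both 2-month libraries. The ratio was 1.40 (1.16 to 1.70) at 18 over 2 months and 1.73 (1.55 to 1.93) at 12 over 2 months, and the fitted log2 fold of the older libraries was 0.68 ± 0.18 (SE; edgeR, adjusted p = 0.00885). The thinned share of papilla-like cells with an Adamts2 UMI was 15.3% at 18mo and 9.96% at 2mo v2, and 25.9% at 12mo and 12.5% at 2mo v3. Of the 8 members tested, 1 was called, while 3.26% of 11402 genes were (2.24% higher and 1.03% lower). Adamts12 did not pass the filter on low counts. DESeq2, which called 0.321% of genes in this class, did not call Adamts2 (log2 fold 0.68, adjusted p = 1.00), nor did edgeR with the 12-month library counted as young (0.46). The median log2 fold of the 8 tested members was -0.10, beside -0.0074 over all genes tested.

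Several measures moved with this class. The 20 immediate early genes summed to 5257 CPM at 18mo and 1191 CPM at 2mo v2, and to 21542 CPM at 12mo and 12912 CPM at 2mo v3 in papilla-like cells, and all 18 of them that were tested rose in the age test. The 24 fibroblast markers summed to 5578 CPM at 18mo and 3741 CPM at 2mo v2 (21 of 24 higher), and to 2966 CPM at 12mo and 3365 CPM at 2mo v3 (16 of 24 higher), with at most 3 of 24 at 0. The 22 papilla markers summed to 16358 and 17467 CPM at 18mo and 2mo v2, and to 13396 and 17867 CPM at 12mo and 2mo v3. Their part in the Adamts2 difference was not tested. Cluster 9 held most papilla-like cells of v2 and cluster 10 those of v3.

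The other members in papilla-like cells did not move together. Adamts5 had 22.6 CPM at 18mo and 36.3 CPM at 2mo v2 (ratio 0.622, 0.448 to 0.857), and 70.1 CPM at 12mo and 73.8 CPM at 2mo v3 (0.950, 0.824 to 1.09). Adamts4 had 17.6 and 16.4 CPM at 18mo and 2mo v2 (1.07), and 33.6 and 21.0 CPM at 12mo and 2mo v3 (1.60, 1.28 to 1.99). Adamts9 had 48.0 and 38.1 CPM at 18mo and 2mo v2 (1.26, 0.972 to 1.64), but 29.1 and 43.2 CPM at 12mo and 2mo v3 (0.673, 0.542 to 0.830). Adamts1 had 25.4 and 20.6 CPM at 18mo and 2mo v2 (1.23, 0.862 to 1.77), and 105 and 95.6 CPM at 12mo and 2mo v3 (1.10, 0.979 to 1.24). Adamts10 had 14.5 and 21.7 CPM at 18mo and 2mo v2 (0.668, 0.439 to 1.01), and 31.5 and 28.4 CPM at 12mo and 2mo v3 (1.11, 0.889 to 1.37), so the intervals of both members held 1 in each pair. Thus 1 member had an interval above 1 at 18 over 2 months, beside 11.9% of genes, and 2 had one below 1 (Adamts5, and Adamts18 on 3 and 12 UMIs), beside 9.18%. At 12 over 2 months 2 members were above 1 (Adamts2 and Adamts4), beside 13.5%, and 2 were below 1 (Adamts9 and Adamts15), beside 21.0%.

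In dermal sheath-like cells, 0 of 9 members passed the age test, which called 0.301% of 12642 genes (2 members had an unadjusted p under 0.05, and DESeq2 called 81 genes, or 0.434%, with no member among them). Adamts15 had 6.54 CPM at 18mo and 14.3 CPM at 2mo v2, and 2.56 CPM at 12mo and 5.6 CPM at 2mo v3. The older library of each pair was lower, while the 18-month level lay above that of 2mo v3. Its ratio was 0.457 in both pairs (0.250 to 0.828 at 18 over 2 months and 0.338 to 0.610 at 12 over 2 months), with a fitted log2 fold of -1.10 ± 0.25 (edgeR, adjusted p = 0.161). Adamts1 had 26.2 CPM at 18mo and 19.1 CPM at 2mo v2 (1.37, 0.923 to 2.07), and 47.3 CPM at 12mo and 28.1 CPM at 2mo v3 (1.68, 1.54 to 1.84), with a fitted log2 fold of 0.71 ± 0.15 (adjusted p = 0.150). These 2 members passed when doublets were kept (adjusted p = 0.00968 for Adamts1 and 0.0163 for Adamts15) and when no filter on low counts was used (0.00217 and 0.00447).

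Adamts9 had 53.7 CPM at 18mo and 30.7 CPM at 2mo v2 in sheath-like cells (ratio 1.75, 1.30 to 2.39), while 12mo and 2mo v3 had 68.6 and 65.7 CPM (1.04, 0.979 to 1.11). Adamts18 had 196 and 158 CPM at 18mo and 2mo v2 (1.24, 1.08 to 1.42), but 162 and 197 CPM at 12mo and 2mo v3 (0.825, 0.793 to 0.858). The intervals of these 2 members lay above 1 at 18 over 2 months, beside 8.13% of genes, and Adamts15 alone lay below 1, beside 8.61%. At 12 over 2 months 2 members lay above 1 (Adamts1 and Adamts5), beside 17.4%, and 6 lay below 1 (Adamts2, Adamts4, Adamts10, Adamts12, Adamts15 and Adamts18), beside 24.9%. Over all 9 members 4 had a fitted log2 fold above 0, with a median of -0.0078, beside -0.0037 over all genes. The 20 immediate early genes summed to 5197 CPM at 18mo and 3115 CPM at 2mo v2 in sheath-like cells, and to 8897 CPM at 12mo and 3603 CPM at 2mo v3, and 10 of 19 tested rose. Their part in the differences of the members was not tested. The clusters that held the v3 sheath-like cells differed between the ages: cluster 18 held 1367 of 1794 at 12mo, and clusters 13 and 14 held 496 and 1359 of 2284 at 2mo v3. In cluster 2, present in all 4 libraries, no member passed the age test, which called 0.504% of genes there, and Adamts15 had a fitted log2 fold of -1.001 ± 0.47 (adjusted p = 0.691).

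**Figure D4:**
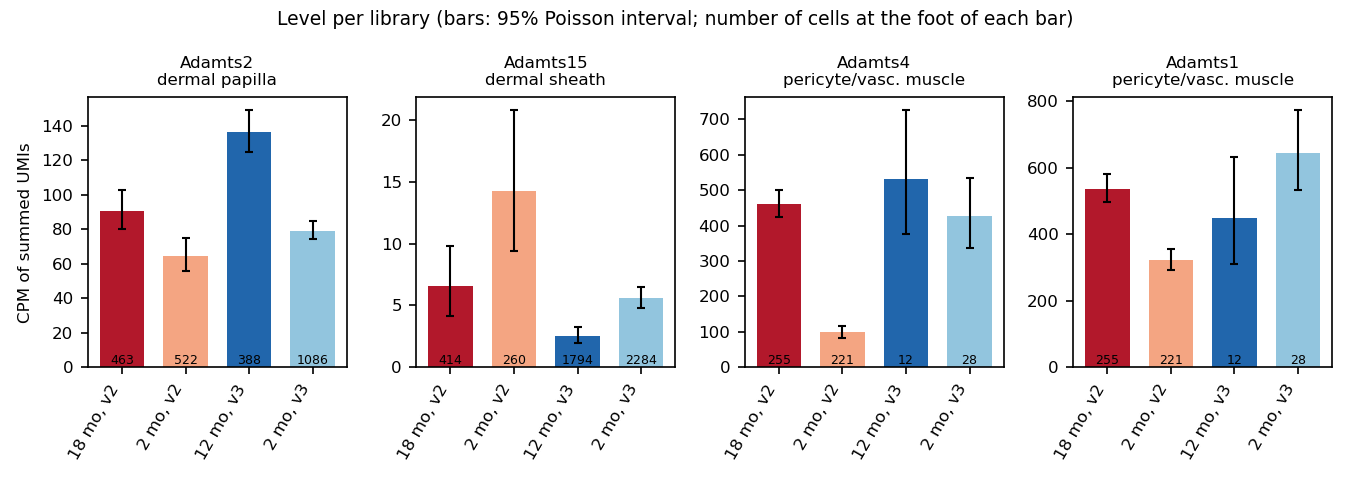
CPM per library of Adamts2 in papilla-like, Adamts15 in sheath-like, and Adamts4 and Adamts1 in pericyte-like cells, with 95% Poisson intervals as bars and the number of cells at the foot of each bar. Adamts2 is higher and Adamts15 lower in the older library of each pair, and Adamts4 stands at 460 CPM at 18mo against 98.5 CPM at 2mo v2; the v3 pericyte-like bars rest on 12 and 28 cells.

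Pericyte and vascular smooth muscle-like cells gave a large ratio for Adamts4 at 18 over 2 months. It had 460 CPM (572 UMIs) in 255 cells at 18mo and 98.5 CPM (128 UMIs) in 221 cells at 2mo v2, a ratio of 4.67 (3.85 to 5.70). The thinned share of cells with an Adamts4 UMI was 38.0% (exact 95% interval 32.1% to 44.3%) at 18mo and 13.6% (9.35% to 18.8%) at 2mo v2, against 0% of keratinocyte-like cells in both. Adamts1 had 537 and 323 CPM at 18mo and 2mo v2 (1.66, 1.47 to 1.89), and Adamts2 had 49.1 and 80.8 CPM (0.607, 0.436 to 0.841). Intervals thus lay above 1 for 2 members, beside 6.21% of genes, and below 1 for 1 member, beside 9.48%, while those of the other 6 held 1. The class was too small for a test, and in v3 it held 12 cells at 12mo, with 531 CPM of Adamts4, and 28 at 2mo, with 427 CPM (1.24, 0.822 to 1.85). The 2-month v3 level was thus far above the 2-month v2 level. Immediate early genes summed to 16709 CPM at 18mo and 11316 CPM at 2mo v2 in this class (20 of 20 higher), the 14 pericyte markers to 7503 and 9812 CPM, and the 23 myeloid markers to 262 and 63.1 CPM (2 and 8 of them at 0). Their part in the Adamts4 and Adamts1 differences was not tested. Endothelium-like cells had 254 CPM of Adamts4 at 12mo (35 cells) and 394 CPM at 2mo v3 (100 cells), a ratio of 0.645 (0.493 to 0.834). In v2 that class held 23 cells at 18mo and 6 at 2mo, too few to compare.

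In fibroblast-like cells, 0 of 9 members passed the age test, which called 0.902% of 11756 genes (1 member had an unadjusted p under 0.05, and DESeq2 called 132 genes, or 0.74%). Adamts2 had 395 CPM at 18mo and 297 CPM at 2mo v2 (ratio 1.33, 1.2 to 1.48), and 521 CPM at 12mo and 503 CPM at 2mo v3 (1.04, 0.986 to 1.09). Adamts18 had 191 CPM in both libraries of v2 (1.00, 0.879 to 1.15), and 133 CPM at 12mo and 193 CPM at 2mo v3 (0.688, 0.630 to 0.752). Adamts4 had 59.7 and 54.1 CPM at 18mo and 2mo v2 (1.10), and 78.6 and 53.3 CPM at 12mo and 2mo v3 (1.47, 1.27 to 1.71). At 18 over 2 months 2 members lay above 1 (Adamts1 and Adamts2), beside 9.15% of genes, and 0 lay below 1, beside 13.1%. At 12 over 2 months 1 lay above 1, beside 14.1%, and 3 lay below 1 (Adamts12, Adamts15 and Adamts18), beside 20.4%. Of the 9 members 4 had a fitted log2 fold above 0, with a median of -0.03, beside -0.0066 over all genes. Immediate early genes summed to 8172 CPM at 18mo and 5563 CPM at 2mo v2 in this class, and to 11163 CPM at 12mo and 9156 CPM at 2mo v3, and 1 of 19 tested, Nr4a2, rose. Their part in the ratios was not tested.

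The make-up of the fibroblast-like class differed between libraries. Cluster 0 held 257 of 716 of its cells at 18mo and 96 of 196 at 2mo v2, and 192 of 701 at 12mo and 147 of 390 at 2mo v3, and cluster 20 held 322 cells at 12mo and 46 at 2mo v3. Within cluster 0, Adamts18 had 484 CPM at 18mo and 359 CPM at 2mo v2 (1.35), and 391 CPM at 12mo and 431 CPM at 2mo v3 (0.908). Adamts2 had 255 and 294 CPM at 18mo and 2mo v2 in cluster 0 (0.868, 0.740 to 1.02), and Adamts1 had a ratio of 0.765 (0.568 to 1.04), both below 1 with intervals that held it. In cluster 8, which held 418 of the 18mo and 42 of the 2mo v2 cells, the ratios were 1.65 (1.33 to 2.07) for Adamts2 and 2.45 (1.54 to 4.18) for Adamts1. In cluster 17 Adamts2 had 4.24 (2.69 to 6.87) at 18 over 2 months, on 71 and 27 UMIs. It went the other way there at 12 over 2 months, with 0.577 (0.447 to 0.734) on 73 and 716 UMIs. In addition, 56 cells of 2mo v3 in cluster 6 carried macrophage genes, so the 23 myeloid markers summed to 4792 CPM in the fibroblast-like class of that library, against at most 872 CPM in the others. The 7 melanocyte markers summed to 4093 CPM in the fibroblast-like class of 2mo v2, against 57.1 CPM at 18mo. Without cluster 6 the ratio at 12 over 2 months was 0.563 for Adamts18 and 1.03 for Adamts2. Within single clusters that Adamts2 ratio was below 1: 0.837 (0.746 to 0.938) in cluster 0 and 0.764 (0.698 to 0.836) in cluster 20, as in cluster 17.

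In myeloid and keratinocyte-like cells no member passed the age test (1.34% of 11562 genes called in the myeloid class, with 1 of 8 tested members under an unadjusted p of 0.05; 0% of 11091 in keratinocyte-like cells, with 654 genes under an unadjusted p of 0.05 and 18, or 0.104%, called by DESeq2). Adamts1 in keratinocyte-like cells had 48.3 CPM at 18mo and 30.3 CPM at 2mo v2 (1.60, 1.26 to 2.02), and 58.0 CPM at 12mo and 70.1 CPM at 2mo v3 (0.828, 0.716 to 0.955). This class held 6.90% of all Adamts1 UMIs at 18mo and 18.6% at 2mo v2. Scaled by TMM within the pair, the ratio at 18 over 2 months was 1.10 (0.865 to 1.38). Different clusters made up the class: cluster 23 held 2 of 147 cells at 18mo and 217 of 259 at 2mo v2, and cluster 11 held 61 and 0. At 12 over 2 months Adamts1 had a ratio of 0.313 (0.238 to 0.409) in cluster 5, but 1.44 (1.19 to 1.74) in cluster 11 and 2.78 (1.2 to 7.19) in cluster 12. In the myeloid class Adamts18 had 53.9 and 32.1 CPM at 18mo and 2mo v2 (1.68, 1.17 to 2.47), Adamts15 had 9.55 and 22.6 CPM (0.424, 0.239 to 0.752) and Adamts5 had 52.2 and 72.9 CPM (0.717, 0.546 to 0.947). Adamts9 had 6.06 CPM at 12mo and 9.86 CPM at 2mo v3 in that class (0.614, 0.393 to 0.950). Over all genes of the myeloid class the median log2 ratio was -0.30 in both pairs, and these ratios are given without that shift. With TMM within the pair, the 18-month log2 ratios were 1.07 for Adamts18 (unscaled 0.75), -0.92 for Adamts15 (-1.24) and -0.16 for Adamts5 (-0.48). Adamts9 at 12 over 2 months then had -0.40 (unscaled -0.70). Its unscaled ratio was 0.256 (0.152 to 0.423) in cluster 3 and 1.17 (0.443 to 2.97) in cluster 7. Of all genes in keratinocyte-like cells, 43.4% had an interval above 1 at 18 over 2 months and 17.7% had one below 1 at 12 over 2 months.

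**Figure D5:**
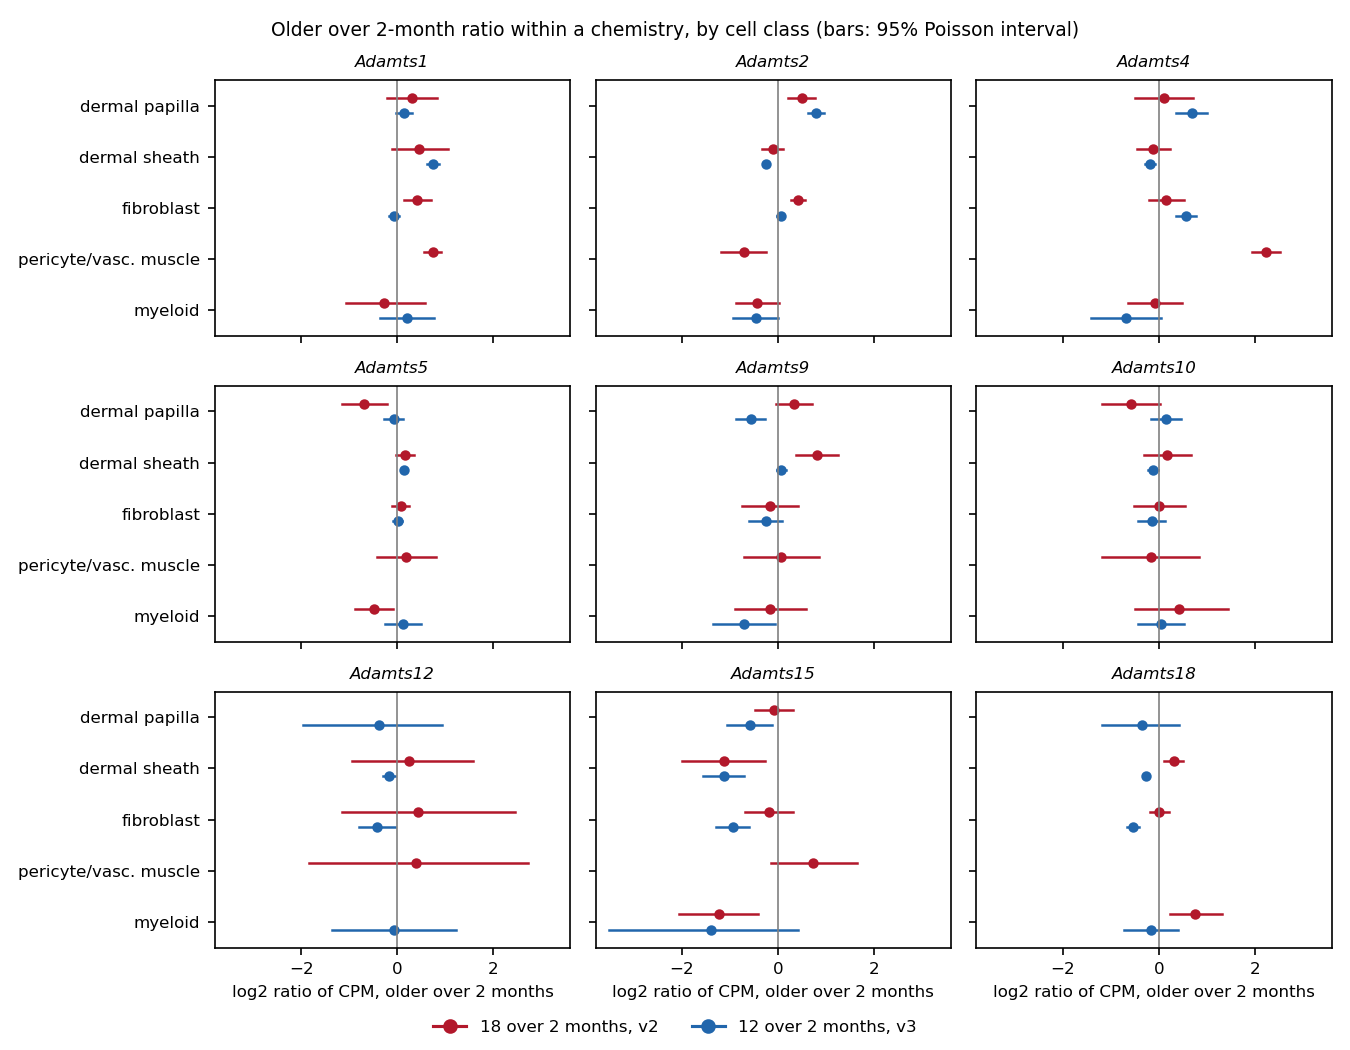
Log2 ratio of CPM, older over 2 months, for each member by cell class, at 18 months in v2 (red) and 12 months in v3 (blue), with 95% Poisson intervals as bars; pairs with fewer than 20 cells, or with 3 or fewer UMIs, in either library are not drawn. The Adamts2 ratios in papilla-like cells and the Adamts15 ratios in sheath-like cells lie on 1 side of 0 in both chemistries, and of the ratios drawn Adamts4 in pericyte-like cells at 18 months stands furthest from 0.

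Cycling cells numbered 33 (18mo), 42 (2mo v2), 62 (12mo) and 65 (2mo v3), too few for the age test. In them Adamts2 had ratios of 2.08 (1.29 to 3.43) at 18 over 2 months and 1.54 (1.24 to 1.92) at 12 over 2 months, and Adamts18 had 3.12 (1.35 to 8.02) on 24 and 8 UMIs, and 0.626 (0.468 to 0.835). Adamts5 (1.68, 1.01 to 2.85) and Adamts9 (7.79, 1.81 to 70.2, on 15 and 2 UMIs) also lay above 1 at 18 over 2 months. Adamts15 lay below 1 at 12 over 2 months (0.289, 0.0686 to 0.935, on 4 and 13 UMIs). The share of all genes with such intervals is not given for this class, and the lineages of its cells were not separated.

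The remaining ADAMTS proteases were low. Of 10, Adamts7 had the highest level over all kept cells, at 10.6 CPM (18mo), 8.0 (2mo v2), 15 (12mo) and 16.4 CPM (2mo v3), and Adamts17, Adamts6 and Adamts14 followed with means of 9.30, 5.56 and 4.35 CPM over the libraries. The age test called 1 of the 2 tested in papilla-like cells, Adamts20, a versican-cutting protease known from pigment cell development in mice, which fell (log2 fold -1.25 ± 0.37, adjusted p = 0.0289; 1.76 and 6.64 CPM at 18mo and 2mo v2, and 6.40 and 13.7 CPM at 12mo and 2mo v3), beside 1.03% of all genes lower. With DESeq2 and with doublets kept 0 of these proteases were called there. Of the 7 ADAMTS-like proteins, which lack the protease domain, none was called in the classes tested, although 3 were called lower in fibroblast-like cells without the low-count filter. Adamtsl5 (mean 26.8 CPM), Adamtsl1 (14), Adamtsl4 (6.23) and Thsd4 (5.38) had the highest levels of them. In fibroblast-like cells 5 of their 6 tested members had a log2 fold below 0, with a median of -0.90 and 4 under an unadjusted p of 0.05, beside a median of -0.0066 and 1293 of 11756 genes under that p over all genes.

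Of 20 matrix proteins that ADAMTS proteases cut or bind, 2 rose and 0 fell among the 15 tested in papilla-like cells, beside 2.24% of all genes higher and 1.03% lower, and DESeq2 called 1. They were Dcn, the small proteoglycan decorin (log2 fold 1.23 ± 0.21, adjusted p = 3.96e-07; 78.0 and 33.2 CPM at 18mo and 2mo v2, and 61.1 and 27.0 CPM at 12mo and 2mo v3), which is also one of the fibroblast markers, and Thbs1, a thrombospondin that ADAMTS1 cuts (0.96 ± 0.24, adjusted p = 0.00361). Thbs1 also rose in fibroblast-like cells (1.02 ± 0.15, adjusted p = 0.0464; 203 and 100.1 CPM at 18mo and 2mo v2, and 251 and 134 CPM at 12mo and 2mo v3), the only one of 16 tested there, beside 0.902% of all genes. That count was 0 with DESeq2's size factors, in cells with at least 1000 genes, with doublets kept and at clustering resolution 1. None of 15 was called in sheath-like cells, where the median log2 fold was -0.23. Over all kept cells Col1a1, Col1a2, Col3a1 and Dcn had the highest levels of the list, with means of 6995, 6966, 2783 and 1985 CPM over the libraries, and apart from Dcn in papilla-like cells none of these 4 was called. In fibroblast cluster 0, the fibrillin Fbn2 fell (-1.05 ± 0.17, edgeR, adjusted p = 0.00256), beside 35 of 9744 genes called lower there.

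Of 14 regulators of ADAMTS proteases (inhibitors, convertases, clearance and glycosylation proteins), Sdc4, a syndecan that takes part in ADAMTS5 activation in mouse cartilage, rose in papilla-like cells (0.59 ± 0.17, adjusted p = 0.0263; 207 and 153 CPM at 18mo and 2mo v2, and 277 and 174 CPM at 12mo and 2mo v3), 1 of 13 tested, beside 2.24% of all genes higher. With DESeq2 and without the low-count filter 0 regulators were called there. Timp1, a tissue inhibitor of metalloproteinases, rose in the myeloid class (1.63 ± 0.33, edgeR, adjusted p = 0.0469), beside 1.34% of all genes called there. It had 37.2 and 24.3 CPM at 18mo and 2mo v2, and 50.7 and 13.4 CPM at 12mo and 2mo v3. Timp2, Itgb1, Sdc4 and Timp3 had the highest levels of the list, with means of 548, 446, 320 and 295 CPM over the libraries. Timp3, the main inhibitor, had 327 and 227 CPM at 18mo and 2mo v2, and 315 and 312 CPM at 12mo and 2mo v3 over all kept cells and was called in no class. No regulator was called in sheath-like cells or in the whole fibroblast-like class. In fibroblast cluster 0, Sdc4 (0.95 ± 0.22, edgeR, adjusted p = 0.0349) and Timp1 (0.64 ± 0.14, adjusted p = 0.0271) rose, beside 95 of 9744 genes called higher there. DESeq2 called no regulator or matrix protein in that cluster.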

How the data were processed

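The deposited values are raw UMI counts, whole numbers for each gene and barcode. The submitters' processing notes name Cell Ranger 2.0.1, Seurat 2.1.0, STAR without a version, and the builds mm10 and GRCm38.p5, but no roles, and the headers of the v3 files name a later software version. Depth per library is given above. The members, lists and tests were chosen with earlier results of these data known.

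Barcodes with at least 500 genes, 1000 UMIs and under 10% mitochondrial UMIs were kept, and the 3% with the highest Scrublet score were removed per library (Scrublet itself called 2 to 11, too few to use). The mitochondrial limit was exceeded by 7.99%, 9.29%, 23.8% and 19.2% of barcodes at 18mo, 2mo v2, 12mo and 2mo v3. In scanpy 1.11.5 (Python 3.11.15), 2000 variable genes without the ADAMTS and listed genes, 30 components, 15 neighbours and Leiden resolution 0.5 gave 24 clusters. A name needed 3 markers of its list among the top 100 genes, each 1.5-fold higher and in 20% of cells. These naming rules, and names given in a second pass, were set after the clusters' genes had been seen, and -like marks a name that rests on markers alone.

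UMIs were summed per library and class. The age test, two-sided, was the quasi-likelihood F-test of edgeR 4.0.16 (R 4.3.3, TMM, default low-count filter, chemistry as covariate, 1 residual degree of freedom) for classes with at least 50 cells in every library, Benjamini-Hochberg adjusted at 0.05 over all genes tested. Nothing in the labels says that samples are independent beyond the mice pooled in each. With 1 residual degree of freedom, p-values rest on how far the folds of the v2 and v3 pairs disagree, with dispersions moderated across genes. Differences in age, chemistry and reporter between the pairs enter that disagreement. The SE given with an edgeR fold was calculated back from the test, as the absolute log2 fold over the square root of its F statistic. DESeq2 1.42.0 was an alternative. Tested on simulated data, the age test recovered 98.0% to 100% of 4-fold and 60.0% to 80.0% of 2-fold changes. False calls numbered 13 over all kept cells and in papilla-like cells, 5 in fibroblast-like and 1 in sheath-like cells. The simulation used a fixed dispersion, the same change in both older libraries and no very low counts among changed genes. Its rates therefore do not give the power of the test in these libraries. Ratios and shares have 95% exact Poisson and Clopper-Pearson intervals (scipy 1.17.1). All 9 members enter every count, and values are printed for those each result turns on; listed genes are named when called or among the 4 highest of their list, and the 3 most alike genes of each member (mean CPM of at least 10) are named, apart from an item that is not reported here; the clusters singled out were chosen after their values were seen. Over all kept cells the median log2 ratio of all genes was 0.12 at 18 and -0.11 at 12 over 2 months, and ratios are given without this shift.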

Additional observations from a re-analysis of the deposited data

Results flagged for a closer look

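The ratios of both pairs were compared over all kept cells, in the 5 classes with an age test and in clusters 0, 2 and 3. In 8 of these comparisons the ratio went up in 1 pair and down in the other, with both counting intervals clear of 1. In none of them was the difference between the pairs tested, because each age and chemistry has 1 library, and the pairs differ in age, chemistry and reporter, which cannot be told apart.

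Over all kept cells, Adamts4 had a ratio of 2.46 at 18 over 2 months and 0.882 at 12 over 2 months, a difference of 1.48 on the log2 scale. Adamts9 had 1.75 and 0.907 at 18 and 12 over 2 months (difference 0.95), and Adamts15 had 1.19 and 0.618 (difference 0.94). In dermal sheath-like cells Adamts18 had 1.24 and 0.825 at 18 and 12 over 2 months (difference 0.59), and in keratinocyte-like cells Adamts1 had 1.60 and 0.828 (difference 0.95).

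Adamts18 also differed in direction in single clusters. It had 1.35 and 0.908 at 18 and 12 over 2 months in fibroblast cluster 0 (difference 0.57), 2.57 and 0.654 in dermal sheath cluster 2 (difference 1.97), and 1.61 and 0.522 in myeloid cluster 3 (difference 1.62). In each of these 3 clusters its ratio was above 1 at 18 months and below 1 at 12 months.

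With TMM scaling within the pair, 1 of the intervals held 1 in 5 of the 8 comparisons. These were Adamts9 over all kept cells at 12 months (0.970, 0.919 to 1.02), Adamts15 over all kept cells at 18 months (1.11, 0.936 to 1.31) and Adamts1 in keratinocyte-like cells at 18 months (1.10, 0.865 to 1.38), and Adamts18 at 12 months in cluster 0 (0.924, 0.844 to 1.01) and cluster 3 (0.648, 0.418 to 1.01).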

How the results depend on the processing

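Counts of genes called in the age test depended on the settings. Over all kept cells 0 genes were called, against 386 with DESeq2 and 1 with no low-count filter. In papilla-like cells 372 became 58 with DESeq2, and in sheath-like cells 38 became 81 with DESeq2, 17 with DESeq2's size factors, 473 with no low-count filter, 102 in cells with at least 1000 genes, 398 with doublets kept and 160 at resolution 1. In fibroblast-like cells 106 became 431 with no filter and 56 at resolution 1. In the myeloid class 155 became 602 with no filter, 327 in cells with at least 1000 genes, 311 with doublets kept and 72 at resolution 1, and in keratinocyte-like cells 0 became 18 with DESeq2, 1 with its size factors, 204 with no filter and 44 with the 12-month library counted as young. Without the chemistry covariate, or with the 12-month library counted as young, 0 genes were called in the papilla-like, sheath-like, fibroblast-like and myeloid classes. The cause was not tested.

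Members called in papilla-like cells were then 0 too, as with DESeq2, where Adamts2 had log2 folds of 0.69 without the covariate, 0.46 with 12 months as young and 0.68 with DESeq2 (adjusted p of 0.999 or more in all 3). It was called with DESeq2's size factors, without the low-count filter, in cells with at least 1000 genes, with doublets kept and at resolution 1 (adjusted p 0.00880 to 0.0274). Leaving out 1 library gave 0.47 to 0.85, with no residual degrees of freedom. Without the low-count filter or with doublets kept, 2 members were called in sheath-like cells, Adamts1 and Adamts15. The all-cell log2 fold of Adamts15 was -0.23, and 0.13 with 12 months as young; leaving out 1 library gave -0.60 to 0.15, and -0.08 to 1.2 for Adamts4 and -0.04 to 0.70 for Adamts9, where the sign also turned.

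With doublets kept, 1 member in place of 2 had an interval above 1 in sheath-like cells and 1 in place of 2 one below 1 in papilla-like cells at 18 over 2 months, where the Adamts18 ratio became 1.86. At 12 over 2 months in fibroblast-like cells, 2 members were above 1 with doublets kept and 3 with TMM scaling, in place of 1, and 5 were below 1 with doublets kept, in place of 3. In cluster 0 alone, added after seeing the data, the fibroblast ratios of Adamts1 (0.765) and Adamts2 (0.868) at 18 over 2 months and of Adamts4 (0.736) at 12 over 2 months lay on the other side of 1, with intervals that held 1, while cluster 8 (2.45 and 1.65) and, for Adamts4, cluster 17 (1.72) kept the side of the class. The class with the highest level was the same for 9 members at resolution 1 and in cells with at least 1000 genes, and for 4 to 9 when 1 library was left out: without 2mo v3, Adamts1, Adamts4, Adamts9, Adamts12 and Adamts15 had another highest class. Of the other results with a test or count, 136 values under alternatives kept their direction and call, or stayed within 1.5 times for counts.

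No paired analysis was possible because the groups compared share fewer than 2 replicate numbers in the labels; the chemistry covariate itself sets each older library against its 2-month partner. Low counts limit papilla-like Adamts12 and Adamts18, and cell number limits the pericyte-like class in v3.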
